A study of Mus musculus with 16 samples.

Results

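The H2 genes are the mouse genes of the major histocompatibility complex (MHC), and their hippocampal RNA was followed here in 16 mice. Members were chosen by symbol, as every gene of the deposited count table whose name starts with H2- and that had a count in at least 1 mouse. Of 45 such genes 39 had a count, out of 33610 genes with a count in a table of 54532. The set was selected on measured values in 2 respects, the presence of a count and the earlier sight that H2-Q6 and H2-Ea-ps separate the genotypes, so these genes are described between genotypes without a test. The members with least data, H2-Q3, H2-M10.3 and H2-M1, had 1 count in all, and the 6 genes just outside, 5 of them with names starting with H2-M10, had 0.

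Wild-type (WT) and transgenic (hTau.P301S) mice were each divided into a vehicle group and an NR group, with 4 mice in each of the 4 groups. In the transgenic line the Thy1 promoter, active mainly in neurons, drives a P301S mutant form of human Tau. NR (nicotinamide riboside), a precursor of NAD+, was dissolved in drinking water at 6 mM, and the vehicle groups drank water. According to the labels the mice were 12 months old at the start, drank NR for 3 months and were 15 months old at the end. Other ages are stated in the paper. Neither the labels nor the methods name the strain background of these WT mice or say whether they were littermates, so genotype and strain background cannot be told apart in any comparison below.

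MHC molecules display peptides at the cell surface. Class I molecules pair a heavy chain, encoded by H2-K1, H2-D1 and the nonclassical genes of the Q, T and M regions, with the light chain B2m, and are made by nearly all nucleated cells under the control of Nlrc5 and of interferons. Class II molecules pair an alpha with a beta chain (H2-Aa with H2-Ab1, and Ea with H2-Eb1), are assembled with the invariant chain Cd74, loaded with the help of H2-DMa and H2-DMb1 and switched on by Ciita, and in brain are made mostly by microglia and by macrophages of the borders. The H2 region is the most variable stretch of the mouse genome: inbred strains carry different haplotypes, in which Q and T genes differ in number, and strains of the b haplotype, C57BL/6 among them, make no Ea chain. The mm10 reference, to which the reads were aligned, is a C57BL/6J genome and so has the b haplotype. The haplotype of these mice is not given, and how well reads of another haplotype align to this reference was not tested. In a lower count of an H2 gene, fewer aligned reads and less RNA can therefore not be told apart.

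Total counts ranged from 16490261 to 21915362 per mouse. One library stood apart: in hTau.P301S replicate 1 mitochondrial genes took 14.4% of counts (4.48% to 7.07% in the other 15), fewer genes had a count (19467, against 22199 or more) and the TMM factor was 0.685 (0.955 to 1.099). B2m was at 569 CPM in that mouse. Most results that rest on it are given with and without it. Some fold changes of single genes outside the H2 set are given only with it. Levels are given in CPM, a mouse's counts relative to its total after TMM scaling. In bulk tissue, fewer cells of a type and less RNA per cell cannot be told apart, and counting intervals or floors given below cover counting error only. Of the 6 markers of hippocampal neurons all were expressed, with a summed level of 1320 to 3200 CPM.

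All 39 members lie on chromosome 17 of GRCm38, the assembly also called mm10, from 33974659 to 37483552, where GENCODE lists 29 of them as protein coding and 10 as pseudogenes of some kind. The filter on low counts kept 23 members over the 16 mice. Among the 16 not kept, 9 had at most 2 counts in every mouse and the highest count of any was 42, for H2-DMb2 in hTau.P301S replicate 1. One of the low members, H2-Ke6, carries the prefix but is not an MHC gene.

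Most MHC RNA came from the classical class I genes. H2-K1 and H2-D1 gave 52.9% of the counts of the 39 members, T-region genes 21%, the DM and O genes 9.48%, the A and E genes of class II 6.86%, Q-region genes 6.75% and M-region genes 1.99%. On the scale of CPM per kb of the deposited gene length, H2-D1 led at 22.2 ± 8.52 (SD, n = 16), followed by H2-K1 at 16.1 ± 6.45, H2-DMa at 8.21 ± 4.42, H2-T22 at 5.17 ± 1.36 and H2-T23 at 4.87 ± 2.02. The class II chains H2-Eb1 (3.88 ± 3.57), H2-Aa (2.75 ± 3.04) and H2-Ab1 (2.05 ± 2.0) had SDs close to or above their means. H2-Q6 was at 0.918 ± 0.738 and H2-Ea-ps at 0.852 ± 1.84 CPM per kb, and H2-M5 closed the order at 0.179 ± 0.1. Only the step from H2-K1 to H2-DMa exceeded the SDs of both neighbours, so the rest of the order holds for neighbours only within the spread between mice.

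**Figure D1:**
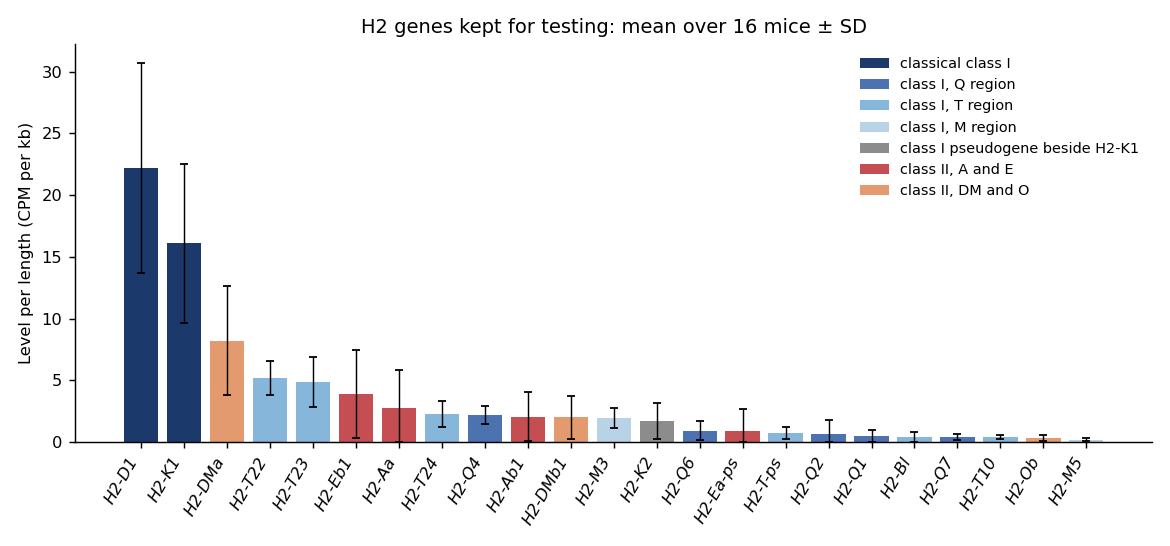
Mean level per length (CPM per kb of deposited gene length) of the 23 H2 genes kept by the filter, over 16 mice, with SD as error bars cut at 0 and colours for the class of gene. H2-D1 (22.2) and H2-K1 (16.1) stand above all others, and the SD exceeds the mean for H2-Aa, H2-Ea-ps, H2-Q2 and H2-Q1.

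H2-Q6 (ENSMUSG00000073409, chromosome 17, 35424850 to 35430055), a nonclassical class I gene of the Q region, was at 3.12, 1.90, 2.53 and 4.65 CPM in the 4 WT mice and at 2.88, 3.72, 2.12 and 4.68 in the WT + NR mice. In hTau.P301S mice it was at 0.342, 0.371, 0.436 and 0.665 CPM, and in hTau.P301S + NR mice at 0.717, 0.470, 0.504 and 1.51 CPM. Every transgenic mouse, hTau.P301S replicate 1 included, was thus below every WT mouse, at 0.626 ± 0.379 against 3.20 ± 1.07 CPM (SD, n = 8 each), a fitted log2 fold change of -2.37 with a standard error of 0.31. This separation is why the gene is known here, and no p is attached to it.

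H2-Ea-ps (ENSMUSG00000036322, chromosome 17, 34341959 to 34344645), the gene of the class II Ea chain, is annotated as a polymorphic pseudogene. It had 0 counts in each of the 8 WT mice, with or without NR. The hTau.P301S mice had 60, 12, 10 and 14 counts and the hTau.P301S + NR mice 5, 19, 4 and 17, or 141 in all, and every transgenic mouse had at least 4. Set against a floor of 3 counts over the 8 WT mice (0.0201 CPM), the summed counts of the transgenic mice were at least 47.8-fold higher, and at least 29.8-fold higher without hTau.P301S replicate 1, which alone held 60 of the counts. For each count of H2-Eb1, whose beta chain pairs with the Ea chain, transgenic mice had from 0.111 to 0.731 counts of H2-Ea-ps (median 0.277). Among 50-base windows of its longest annotated transcript 0% occur in a transcript of another gene, whereas 32% of those of H2-Q6 do (13.9% in H2-Q7), so reads of H2-Q6 can be shared out among Q genes in the counting.

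Of the 23 kept members, H2-Q6 was the 1 with all 8 transgenic mice below all 8 WT mice and H2-Ea-ps the 1 with all above. Both separations were known when the set was chosen, so they are not read against the shares of all genes. H2-Ea-ps also passed the filter through the transgenic mice alone. Of the other 21 kept members, 0 separated the genotypes. Over all 17555 genes kept, 0.0399% were below and 0.154% above in this way. The H2 region holds 94 other kept genes, and 0 of them separated the genotypes. The same was true of 93 genes within 5 Mb on either side. Without hTau.P301S replicate 1, H2-Q7 joined the members below (background 0.165%). In that setting 1 of the 94 neighbours inside the region and 2 of the 93 outside it were called, as defined below (background 0.318%). Over all mice 0 of the 94 and 1 of the 93 were called (background 0.12%). Without hTau.P301S replicate 1, 0.407% of kept genes on other chromosomes separated in either direction. In the same setting 0 of the 94 neighbours inside the region separated, and 3 of the 93 outside it did (3.23%). They are named after their values were seen: Rps18, a ribosomal protein gene, was lower (log2 fold change -1.41 with standard error 0.20, adjusted p = 0.00243, edgeR), Rgl2 was lower (-0.57, standard error 0.13, adjusted p = 0.0861, edgeR) and Gm7335, a processed pseudogene, was higher (2.57, standard error 0.21, adjusted p = 4.27e-06, edgeR).

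**Figure D2:**
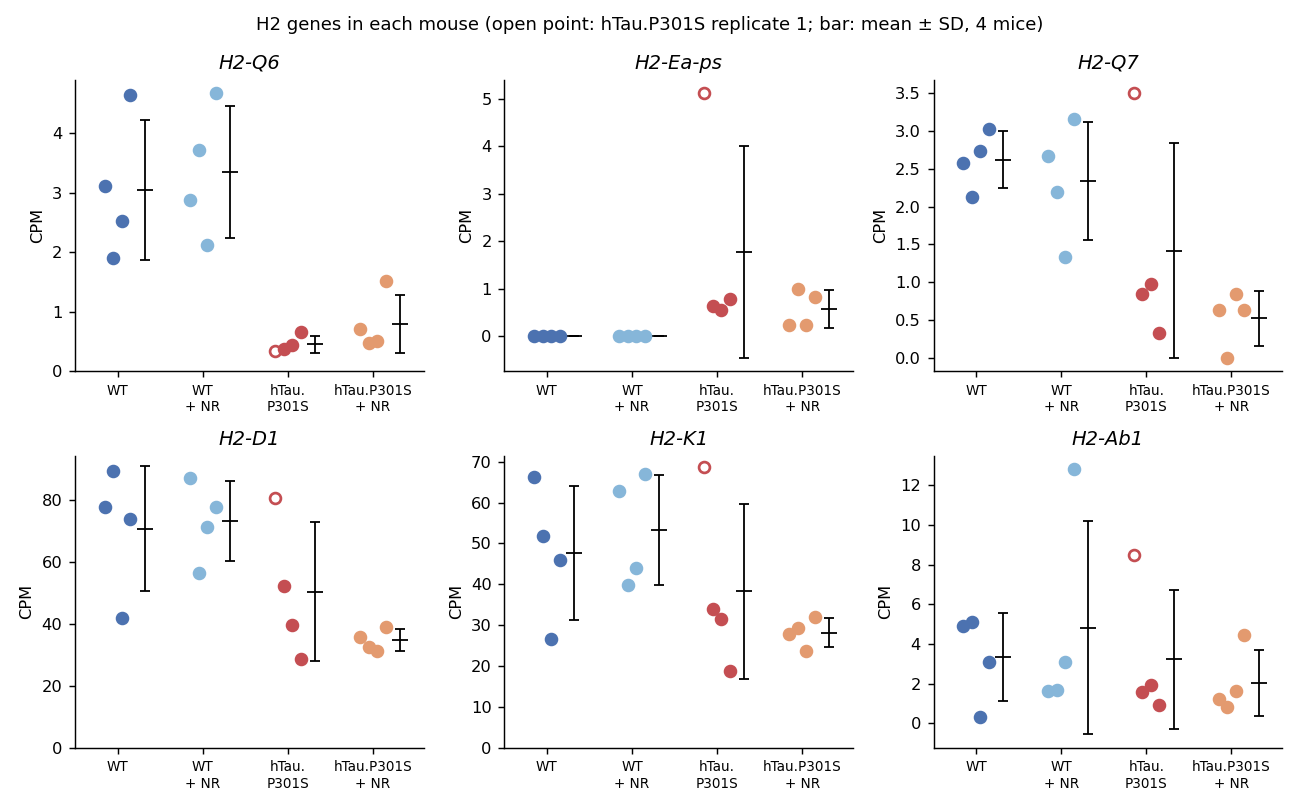
CPM of 6 H2 genes in each mouse by group, with mean and SD of the 4 mice beside the points. H2-Q6 and H2-Ea-ps do not overlap between genotypes, H2-Q7, H2-D1 and H2-K1 overlap only through hTau.P301S replicate 1 (open points) and, for H2-D1 and H2-K1, WT replicate 3, and H2-Ab1 varies widely within each group.

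The question for the remaining members was whether MHC genes differ with the Tau transgene. Across genotypes most were lower in transgenic mice, and 0 were called. In the fit of all 16 mice with NR as a covariate, 21 members other than H2-Q6 and H2-Ea-ps were tested, of which 17 were lower and 4 higher, with a median log2 fold change of -0.46 against 0.01 over all genes. A gene was called where its adjusted p was under 0.05 and its log2 fold change lay beyond 0.5 in either direction, which 0.12% of all genes met. At an unadjusted p under 0.05, 6 of the 21 were lower and 0 higher, whereas 4.39% of all genes were lower at this level. The 6 were H2-D1, H2-K1, H2-Q7, H2-Q4, H2-Q2 and H2-M5. By the two-sided exact permutation test, unadjusted, p was 0.334 for H2-Q2 and from 0.00249 to 0.0474 for the others. DESeq2 in the same design called 0 of the 21.

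H2-D1 (ENSMUSG00000073411), a classical heavy chain, was at 77.8, 89.4, 42.0 and 73.9 CPM in WT mice given vehicle and at 87.1, 56.5, 71.2 and 77.8 in those given NR. It was at 80.8, 52.4, 39.7 and 28.8 CPM in hTau.P301S and at 35.9, 32.5, 31.3 and 39.1 in hTau.P301S + NR mice. The genotypes overlapped through hTau.P301S replicates 1 and 2 at the high end and WT replicate 3 at the low end. Over genotypes it was at 42.5 ± 17.1 against 72 ± 15.8 CPM (SD, n = 8 each), a log2 fold change of -0.78 with a standard error of 0.21, which was not called (adjusted p = 0.323, edgeR; two-sided exact permutation p = 0.00404, unadjusted). Without hTau.P301S replicate 1 it was called (log2 fold change -0.96 with standard error 0.16, adjusted p = 0.0142, edgeR).

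H2-K1 (ENSMUSG00000061232), the other classical heavy chain, was at 66.4, 51.8, 26.6 and 46.0 CPM in WT mice, 62.8, 39.8, 44.1 and 66.9 in WT + NR mice, 68.8, 34.0, 31.4 and 18.8 in hTau.P301S, and 27.9, 29.2, 23.6 and 32 in hTau.P301S + NR mice. The order of groups was that of H2-D1, and hTau.P301S replicate 1 was the highest of all 16. Its log2 fold change was -0.62 (standard error 0.24, adjusted p = 0.557, edgeR) over all mice and -0.85 (standard error 0.19, adjusted p = 0.0689, edgeR) without that mouse. H2-Q7, a Q-region gene like H2-Q6, was at 2.13 to 3.03 CPM in WT mice, 1.33 to 3.16 in WT + NR mice, 0.332 to 3.50 in hTau.P301S and 0 to 0.840 in hTau.P301S + NR mice, and only hTau.P301S replicate 1 reached the WT range. Its log2 fold change was -1.51 (standard error 0.52, adjusted p = 0.488, edgeR), or -2.01 (standard error 0.42, adjusted p = 0.0571, edgeR) without that mouse. With hTau.P301S replicate 1 left out, 19 of the 21 members were lower, 12 of them at an unadjusted p under 0.05 (background 7.87%) and 0 higher at that level, and 1, H2-D1, was called (background of all calls 0.318%). The median was then -0.74, against -0.03 over all genes.

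Each pair of groups gave the same contrast in different mice. With NR, 18 of 20 members tested were lower in transgenic mice, with a median of -0.53 against -0.02 over all genes. At an unadjusted p under 0.05, 6 were lower (background 3.67%) and 0 higher, and 0 were called (background 0.054%). H2-D1 (log2 fold change -1.08 with standard error 0.14), H2-K1 (-0.92, standard error 0.18) and H2-Q7 (-2.14, standard error 0.67) were below WT + NR in all 4 hTau.P301S + NR mice, 3 of 21 kept members against a background of 2.14%. For each the two-sided exact permutation p was 0.0286, the lowest that 4 mice against 4 can give, and the smallest adjusted p was that of H2-D1 (0.0537, edgeR). The pseudogene H2-K2 (-1.40, standard error 0.39), H2-DMb1 (-1.12, standard error 0.44) and H2-DMa (-0.39, standard error 0.17) made up the 6. DESeq2 called H2-D1 (adjusted p = 4.5e-07) and H2-K1 (adjusted p = 0.00479) in this comparison, and edgeR called H2-D1 without WT + NR replicate 2 (adjusted p = 0.0186) or WT + NR replicate 3 (adjusted p = 0.0422). With all 4 groups in one fit neither tool called H2-D1 or H2-K1.

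Without NR, 11 of 18 members were lower and 7 higher, with a median of -0.08 against 0.02. None was called by edgeR (background 0.00611%), and 1, H2-Ob, the beta chain of the DM inhibitor DO, was higher at an unadjusted p under 0.05 (log2 fold change 1.38 with standard error 0.59, adjusted p = 0.598, edgeR), where 7.14% of all genes passed in either direction. Without hTau.P301S replicate 1, H2-Ob was at 0.73 (standard error 0.45, adjusted p = 0.534, edgeR) and no longer passed. DESeq2 called 0 of these members as well. Leaving out hTau.P301S replicate 1 turned 18 of 19 members lower, 5 of them at an unadjusted p under 0.05 (background 6.63%), with a median of -0.75 and 0 called (background 0.0832%). H2-D1 went from -0.48 (standard error 0.36) to -0.82 (standard error 0.28), H2-K1 from -0.31 to -0.77 and H2-Q7 from -0.90 to -1.86. The 2 genotype contrasts share no mice. In both, the Q-region genes tested other than H2-Q6 had log2 fold changes below 0, where the median over all genes was 0.02 without NR and -0.02 with NR. With NR, H2-Q1 was at only -0.07 (standard error 0.98). Reads can be shared out among Q genes in the counting, so these genes are not independent of each other.

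**Figure D3:**
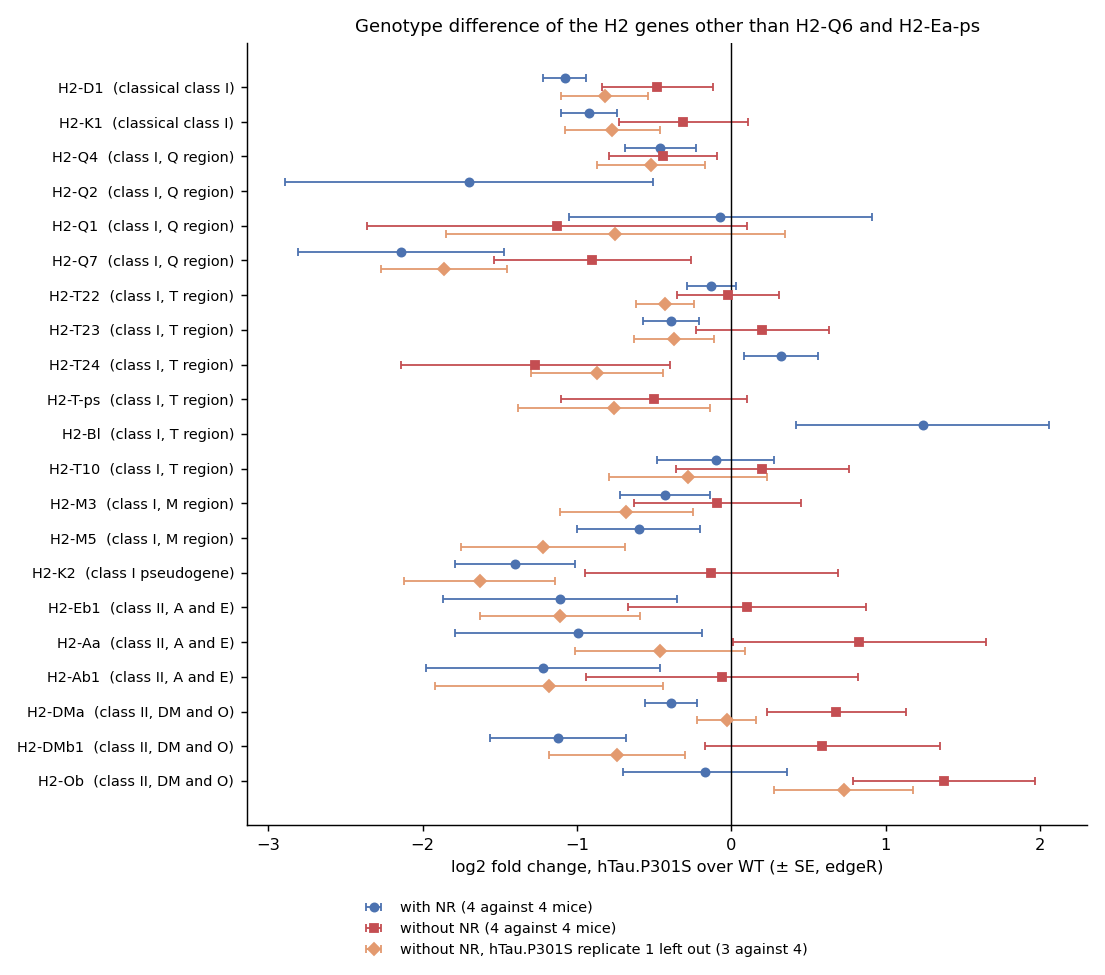
Log2 fold change between hTau.P301S and WT mice, with standard error, of the 21 kept H2 genes other than H2-Q6 and H2-Ea-ps, with NR (blue), without NR (red) and without NR after leaving out hTau.P301S replicate 1 (orange); genes that did not pass the filter of a fit have no point. H2-D1 is at -1.08, -0.48 and -0.82, and H2-DMa is at -0.39, 0.68 and -0.03.

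The light chain B2m did not separate the genotypes. It was at 99.5 ± 23.7 CPM in WT mice, 103 ± 23.9 in WT + NR mice, 229 ± 227 in hTau.P301S (116 ± 4.47 in its 3 mice other than replicate 1) and 111 ± 20.8 in hTau.P301S + NR mice (SD, n = 4 unless stated). Its log2 fold change over all mice was 0.65 (standard error 0.34, adjusted p = 0.663, edgeR), or 0.15 (standard error 0.14, adjusted p = 0.641, edgeR) without hTau.P301S replicate 1. The ratio of counts within a mouse is free of its total, and was computed after these values had been seen. For each B2m count there were 0.745, 0.705, 0.604 and 0.760 counts of H2-D1 in WT mice, 0.652, 0.739, 0.741 and 0.725 in WT + NR mice, 0.142, 0.455, 0.329 and 0.257 in hTau.P301S, and 0.268, 0.345, 0.255 and 0.421 in hTau.P301S + NR mice. H2-K1 gave 0.383 to 0.635 in the 8 WT and 0.121 to 0.345 in the 8 transgenic mice, and H2-Q7 gave 0.0139 to 0.0395 and 0 to 0.00812. In these 3 of 21 members, every transgenic mouse was below every WT mouse, hTau.P301S replicate 1 included, where 0.114% of all genes taken per B2m count were (0.142% with that mouse left out). No member was above. In hTau.P301S replicate 1, H2-D1, H2-K1 and H2-Q7 were themselves not below the WT range (80.8, 68.8 and 3.50 CPM). Its low ratios came from B2m, at 569 CPM.

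**Figure D4:**
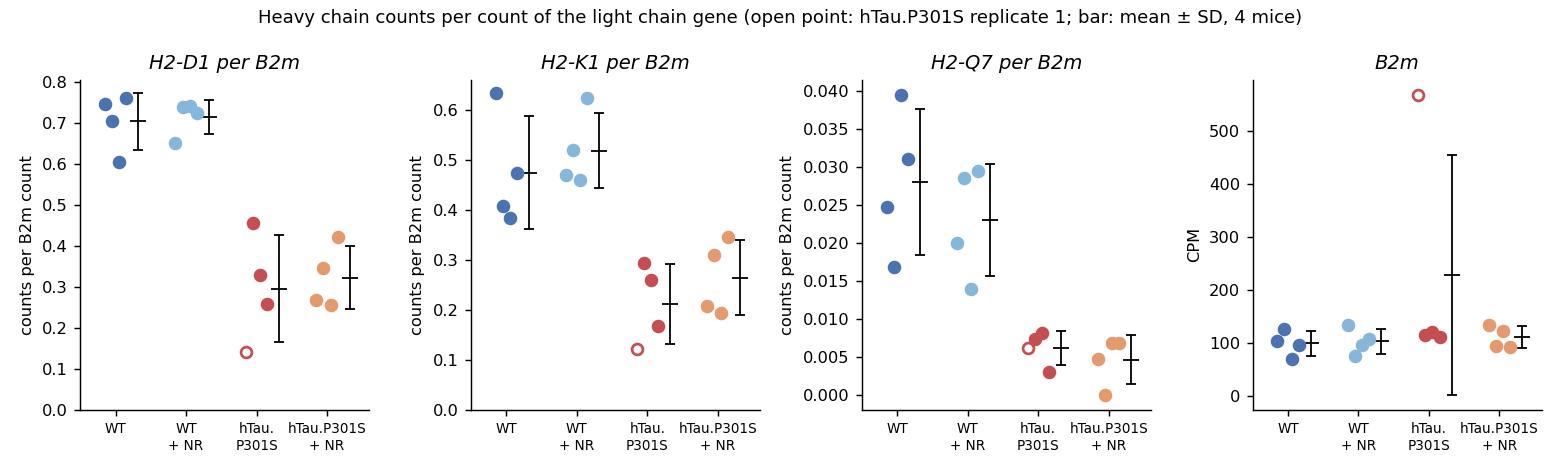
Counts of H2-D1, H2-K1 and H2-Q7 for each count of B2m in every mouse, and B2m itself in CPM, by group, with mean and SD of the 4 mice beside the points. All 8 transgenic mice lie below all 8 WT mice in the first 3 panels (for H2-D1 at most 0.455 against at least 0.604), while B2m overlaps apart from hTau.P301S replicate 1 (open point, 569 CPM).

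Promoters are shown because H2-K1 and H2-D1 moved together and because class I genes have known control sequences there. In classical class I promoters, enhancer A holds a kappa B site, followed by an interferon-response element, and the SXY module ends in a Y box. Windows from 250 bases before to 50 after the start were taken from RefSeq (GRCm38.p6, the first start listed for a gene) for 27 of the 39 members and searched on both strands for the kappa B core of enhancer A (the capitals that open each stretch printed next), the interferon-response core TTTCACTT and the Y box TGATTGG. The kappa B core searched for is itself a class I enhancer sequence, so its share among class I members is a description and no test. It was found in 4 of 18 class I members, and in 0.107% of 32851 promoters of all genes. These 4 were H2-K1, H2-D1, H2-Q6 and H2-Q7. In each the interferon-response core follows within the same 28 or 29 bases, printed 5′ to 3′ with both cores in capitals:
H2-K1, chr17:34000430-34000458, minus strand: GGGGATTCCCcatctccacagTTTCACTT
H2-D1, chr17:35262923-35262951, plus strand: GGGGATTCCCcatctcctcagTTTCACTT
H2-Q6, chr17:35424677-35424705, plus strand: GGGGATTCCCcatctccccagTTTCACTT
H2-Q7, chr17:35439022-35439049, plus strand: GGGGATTCCCatctccccagTTTCACTT

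The interferon-response core was in 9 of 18 class I and 0 of 8 class II promoters (1.6% of all), H2-Q4 and H2-T22 among the others, and the Y box in 11 of 18 class I and 7 of 8 class II promoters (7.82% of all). In the printed stretches no motif overlaps another. The 180 bases before the start of H2-K1 and H2-Q6 and the 140 before that of H2-Eb1, a class II gene with the Y box alone, show the 2 arrangements, again with motifs in capitals. The Y box of H2-K1 lies past its listed start and so is not in its stretch.
H2-K1, chr17:34000348-34000527, minus strand: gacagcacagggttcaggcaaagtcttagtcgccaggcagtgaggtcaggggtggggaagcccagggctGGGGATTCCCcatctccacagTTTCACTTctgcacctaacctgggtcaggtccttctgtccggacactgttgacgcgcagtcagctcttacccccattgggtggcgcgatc
H2-Q6, chr17:35424670-35424849, plus strand: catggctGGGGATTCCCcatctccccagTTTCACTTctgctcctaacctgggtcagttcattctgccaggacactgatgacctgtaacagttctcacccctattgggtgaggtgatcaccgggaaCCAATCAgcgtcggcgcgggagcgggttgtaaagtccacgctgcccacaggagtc
H2-Eb1, chr17:34305727-34305866, plus strand: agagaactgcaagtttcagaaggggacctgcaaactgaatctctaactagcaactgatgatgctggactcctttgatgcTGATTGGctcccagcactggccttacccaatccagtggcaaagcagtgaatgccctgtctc
The letters are those of the reference, not of these mice, and a match is a description of the window and not a bound site. The part of these motifs in the levels of the genes was not tested.

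The class II genes were scarce and uneven between mice. H2-Ab1, the beta chain of the A molecule, was at 4.93, 5.10, 0.316 and 3.08 CPM in WT mice, 1.64, 1.69, 3.11 and 12.8 in WT + NR mice, 8.46, 1.59, 1.91 and 0.942 in hTau.P301S, and 1.25, 0.835, 1.62 and 4.47 in hTau.P301S + NR mice. One mouse of each group except WT stood high, and WT replicate 3 was the lowest of the 16. H2-Aa, its alpha chain, ran from 0.949 to 6.41 CPM in WT mice, 1.48 to 15.0 in WT + NR mice, 2.27 to 22.2 in hTau.P301S and 1.36 to 5.78 in hTau.P301S + NR mice. Its genotype difference over all mice was -0.08 (standard error 0.65, adjusted p = 0.987, edgeR), that of H2-Ab1 -0.65 (standard error 0.63) and that of H2-Eb1 -0.51 (standard error 0.59). Without hTau.P301S replicate 1, H2-Ab1 was at -1.21 (standard error 0.56, adjusted p = 0.370, edgeR) and H2-Eb1 at -1.11 (standard error 0.50, adjusted p = 0.357, edgeR). The sign for H2-Aa turned with 5 of the mice left out one at a time, and it was -0.74 (standard error 0.53) without hTau.P301S replicate 1. H2-DMa, part of the peptide loader, was the steadiest of the class, at 10.5 to 17.2 CPM in the 8 WT mice and 8.74 to 13.3 in 7 transgenic mice, with 39.7 in hTau.P301S replicate 1. Its log2 fold change was 0.14 (standard error 0.28, adjusted p = 0.920, edgeR) with that mouse and -0.22 (standard error 0.12, adjusted p = 0.447, edgeR) without it. H2-DMb1, its partner, shares 27.2% of its 50-base windows with H2-DMb2, and differed by -0.27 (standard error 0.51) with and -0.95 (standard error 0.32, adjusted p = 0.244, edgeR) without that mouse.

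Among the nonclassical genes of the T and M regions none was called. H2-T22 (17.2 against 18.1 CPM in 8 transgenic and 8 WT mice) and H2-T23, the gene of Qa-1 (13.8 against 14.4), had log2 fold changes of -0.08 (standard error 0.18) and -0.10 (standard error 0.24). Both were highest of all mice in hTau.P301S replicate 1, at 30.9 and 32.8 CPM. Without that mouse their log2 fold changes were -0.27 (standard error 0.13, adjusted p = 0.383, edgeR) and -0.38 (standard error 0.15, adjusted p = 0.321, edgeR). H2-T22 and H2-T10 share 32% and 30.3% of their windows, and H2-T10 differed by 0.04 (standard error 0.34). H2-M3, which presents formylated peptides, was at 2.53 against 3.02 CPM (log2 fold change -0.27 with standard error 0.30). Without hTau.P301S replicate 1 its log2 fold change was -0.54 (standard error 0.25, adjusted p = 0.370, edgeR). H2-Bl was the member with the largest higher value (1.14, standard error 0.67, adjusted p = 0.690, edgeR), at 0.965 against 0.422 CPM, and was at 0.54 (standard error 0.64) without hTau.P301S replicate 1, which had 2.39 CPM. Some low members were present in single mice: H2-Q2 reached 7.06 CPM in WT replicate 2 and 8.69 in WT + NR replicate 3 and was at 0 to 1.02 in the other mice (log2 fold change -2.64 with standard error 1.03, adjusted p = 0.555, edgeR). H2-Q1 ran from 0.0546 to 4.76 CPM in WT and from 0 to 3.44 in transgenic mice. H2-M5 was lower (-1.06, standard error 0.42, adjusted p = 0.555, edgeR) at 0.304 against 0.656 CPM, and H2-Q4 (-0.45, standard error 0.20, adjusted p = 0.631, edgeR) at 4.77 against 6.53 CPM.

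No H2 gene was called for NR by edgeR. In WT mice 0 of 20 members were called (background 0%), 0 had an unadjusted p under 0.05 (background 0.79%) and DESeq2 called 0, with 11 higher, 9 lower and a median of 0.05. H2-D1 differed by 0.05 (standard error 0.23) and H2-K1 by 0.17 (standard error 0.28). In hTau.P301S mice 0 of 18 were called (background 0.0061%) and 0 had an unadjusted p under 0.05 (background 12.9%), DESeq2 called 0, and 15 were lower with NR, with a median of -0.60 against -0.03 over all genes. Without hTau.P301S replicate 1 the median was 0.00, with 10 members higher and 9 lower, and H2-K1 went from -0.45 to 0.02. At an unadjusted p under 0.05, 3 were then higher (background 10.6%) and 0 lower.

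H2-T24, a T-region gene, was at 0, 3.76, 3.21 and 2.22 CPM in hTau.P301S and 6.59, 4.02, 8.23 and 7.58 in hTau.P301S + NR mice, against 2.07 to 7.52 in WT and 4.39 to 6.56 in WT + NR mice. All 4 hTau.P301S + NR mice were above all 4 hTau.P301S mice, and the same held for H2-Q2, 2 of 21 kept members against a background of 6.5%. For H2-T24 the log2 fold change was 1.5 (standard error 0.79, adjusted p = 0.370, edgeR; two-sided exact permutation p = 0.0286, the lowest possible), and 1.12 (standard error 0.30, adjusted p = 0.120, edgeR) without hTau.P301S replicate 1, which had 0 counts. H2-Q2, at 0.770 against 0.115 CPM, was tested only without that mouse (2.57, standard error 0.69, adjusted p = 0.120, edgeR). H2-Q6 stayed low with NR (0.799 ± 0.484 against 0.453 ± 0.146 CPM, SD, n = 4, exact permutation p = 0.143), and H2-Ea-ps was at 0.566 against 1.77 CPM (exact permutation p = 0.286), or against 0.652 without replicate 1. The difference between the NR effects of the genotypes passed the adjusted p for 0 of 21 members (background 0%), with 0 at an unadjusted p under 0.05 (background 7.92%), and the smallest adjusted p was 0.558 (edgeR). DESeq2 called 0 members here as well.

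Across the 16 mice 5 pairs of genes were correlated. Among them, each on log2 CPM with two-sided permutation p adjusted over the 5, H2-K1 followed H2-D1 with r = 0.94 (adjusted p = 5e-05 from the lowest value that 100000 permutations give, rho = 0.91, adjusted p = 5e-05), 0.93 without the 2 mice farthest from the median of H2-K1, and 0.93 on deviations from group means. H2-Aa followed H2-Ab1 (r = 0.91, permutation adjusted p = 5e-05, rho = 0.88, adjusted p = 7.5e-05, and 0.87 without the 2 farthest mice) and H2-Ab1 followed Cd74 (r = 0.85, permutation adjusted p = 5e-05, rho = 0.78, adjusted p = 0.000787, and 0.78 without them). The class I and class II genes were linked as well (H2-K1 with H2-Ab1: r = 0.75, permutation adjusted p = 0.000962, rho = 0.82, adjusted p = 0.000283, and 0.70 without them). H2-K1 and B2m were not linked over all mice (r = 0.38, permutation p and adjusted p = 0.135, rho = 0.21, adjusted p = 0.424, and 0.17 without them), while within groups r was 0.77, or 0.63 without hTau.P301S replicate 1. For H2-Ab1 with Cd74, r within groups was 0.97. For each Cd74 count there were 0.0934 to 0.165 counts of H2-Ab1 in the 8 transgenic mice. The 8 WT mice had 0.128 to 0.406, with WT replicate 3 the lowest.

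**Figure D5:**
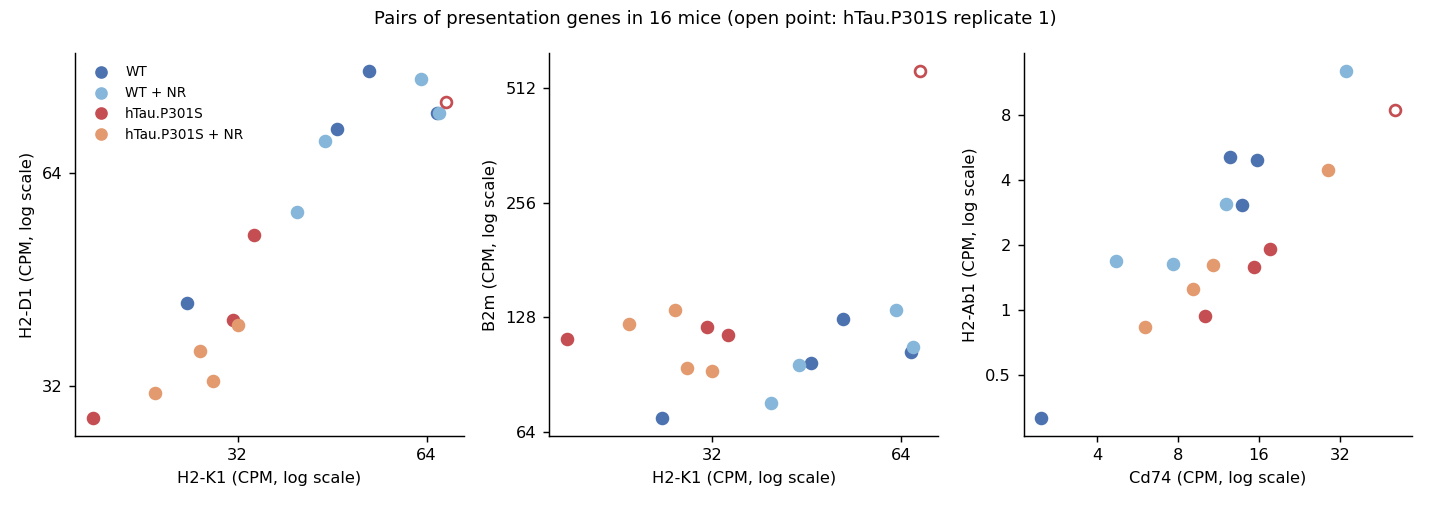
CPM of 3 pairs of genes in the 16 mice, on log axes of base 2, coloured by group, with hTau.P301S replicate 1 as an open point. H2-D1 rises with H2-K1 in one band (r = 0.94). H2-Ab1 rises with Cd74 (r = 0.85), with 0.0934 to 0.165 counts per Cd74 count in transgenic and 0.128 to 0.406 in WT mice. H2-K1 against B2m falls into a band of WT and a band of transgenic mice (r = 0.38 over all).

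The other genes of antigen presentation and of immune states were read from lists, and 0 of them were called by edgeR between genotypes over all mice. Among 16 partners of class I presentation, 9 were higher and 7 lower with a median of 0.07 (5 and 11 with a median of -0.14 without hTau.P301S replicate 1), and 1, Tapbp, which tethers class I molecules to the peptide transporter, was lower at an unadjusted p under 0.05 (log2 fold change -0.41 with standard error 0.14, adjusted p = 0.486, edgeR). Tap1, part of that transporter, was at 4.99 against 5.77 CPM (-0.22, standard error 0.22, or -0.42, standard error 0.15, adjusted p = 0.261, edgeR, without hTau.P301S replicate 1) and Nlrc5, the activator of class I genes, at 1.10 against 1.55 CPM (-0.46, standard error 0.26, adjusted p = 0.683, edgeR). Among 8 partners of class II, 6 were higher and 2 lower (5 and 3 without hTau.P301S replicate 1). With that mouse included, Cd74 differed by 0.50 (standard error 0.51) and Ctss, a lysosomal protease, by 1.05 (standard error 0.36, adjusted p = 0.488, edgeR). Cd74 was at 18.6 CPM in transgenic mice, or 14.0 without that mouse, against 12.8 in WT mice. Ciita, at 0.768 against 1.37 CPM, differed by -0.86 (standard error 0.44, adjusted p = 0.662, edgeR).

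Of 31 interferon-stimulated genes 30 were tested, with 16 higher, 14 lower and a median of 0.02, and 1, Irgm1, was higher at an unadjusted p under 0.05 (0.24, standard error 0.11, adjusted p = 0.637, edgeR). Their summed level was 139 to 259 CPM in WT mice, 178 to 283 in WT + NR mice, 198 to 226 in hTau.P301S + NR and 166 to 221 in hTau.P301S mice other than replicate 1, which had 417. Without that mouse 12 were higher and 18 lower, with a median of -0.09. At an unadjusted p under 0.05, 2 of them were then lower (background 7.87%) and 0 higher.

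All 14 markers of activated microglia had a log2 fold change above 0, with a median of 1.68. At an unadjusted p under 0.05 were 7 of them, and 1361 of 17555 genes in either direction. Without hTau.P301S replicate 1 the median was 0.46, with 4 of 14 at that level and 2381 of 17897 genes. Without NR, 10 of 13 markers tested were at that level (background 7.14%), or 6 of 13 without that mouse, where 1985 of 16835 genes were. With NR 0 of 14 were (1016 of 16671 genes), with 11 higher, 3 lower and a median of 0.33. Over all mice, hTau.P301S replicate 1 included, Clec7a (2.65, standard error 0.76, adjusted p = 0.376, edgeR) and Itgax (2.25, standard error 0.63, adjusted p = 0.366, edgeR) led the 14 markers. Their summed level was 128 to 208 CPM in WT mice, 153 to 396 in WT + NR mice, 207 to 348 in hTau.P301S + NR, 194 to 303 in 3 hTau.P301S mice and 1950 in replicate 1. All 12 homeostatic microglial genes were above 0 as well (median 0.31, 3 at an unadjusted p under 0.05, Csf1r and C1qa among them), and 11 of 12 without that mouse (median 0.16, 1 at that level). The shares of all genes in these 2 fits are those given above, 1361 of 17555 and 2381 of 17897. Their sum was 3440 CPM in hTau.P301S replicate 1 and 424 to 984 in the other mice. The part of these cells in the values of the MHC genes was not tested.

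Markers of other cells were read in the same way. T-cell markers summed to 0.328 to 10.8 CPM over all mice, and B-cell markers to at most 2.02 CPM, with Ms4a1 at 0 counts in hTau.P301S replicate 1. All 4 perivascular macrophage markers had a log2 fold change below 0 (median -0.18; 2 of 4 without hTau.P301S replicate 1), at 2.05 to 26.9 CPM in sum, with Cd163 and F13a1 at 0 in that mouse. The 5 endothelial markers summed to 127 to 250 CPM in WT mice with or without NR and 99.7 to 207 in transgenic mice, with 4 lower and 1 of them, Cldn5, at an unadjusted p under 0.05 (-0.46, standard error 0.22, adjusted p = 0.641, edgeR). The 4 choroid plexus markers were lower (median -1.59) and ran from 18.9 to 9740 CPM in sum between mice. All 4 were also lower with NR (median -2.01), without NR (-1.19) and over all mice without hTau.P301S replicate 1 (-1.45). Their part in the MHC values was not tested. The hippocampal neuron markers had a median difference of -0.04.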

How the data were processed

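Per the labels and the study's methods, the authors sequenced hippocampal RNA of 16 mice, checked and trimmed reads (FastQC, Trim Galore), aligned them to mm10 with STAR and counted genes with RSEM, and deposited 1 table of whole-number counts per gene with a gene length column. Versions are not given in the sources used here.

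From the counts, edgeR 4.0.16 (R 4.3.3, limma 3.58.1) was run with filterByExpr, TMM factors, the quasi-likelihood test and Benjamini-Hochberg adjustment over all genes kept, with each pair of groups fitted alone, and all 16 mice fitted for genotype (NR as covariate) and for the interaction. Called meant an adjusted p under 0.05 with an absolute log2 fold change above 0.5, and for the interaction the adjusted p alone. DESeq2 1.42.0, other scalings, other filters, a replicate block and leaving out each mouse were alternatives. Levels are CPM on TMM totals, and correlations used log2 CPM with a prior count of 2. Exact permutation tests, ratios, motifs and shared 50-base windows (GENCODE M21) were computed in Python 3.11.15 with numpy 2.4.6, pandas 2.3.3 and scipy 1.17.1, and figures were drawn with matplotlib 3.10.9. The fits were tested on simulated data.

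All members kept by the filter were to be named, with, per gene list, at most 4 genes of lowest p beside B2m, Cd74, Ciita, Nlrc5 and Tap1. Members and lists were chosen with earlier results of these data known. The labels mark the samples as separate mice and say no more of their origin, so p-values measure the spread between these samples.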

Additional observations from a re-analysis of the deposited data

Results flagged for a closer look

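In 90 gene and group pairs of kept H2 genes, the mouse at either end of its group of 4 was compared with the rest by Dixon's ratio on log2 CPM, and 9 (10.0%) exceeded the critical value, where about 1 in 20 would by chance. Of these, 3 were of hTau.P301S replicate 1. It was the highest for H2-Ea-ps (ratio 0.855, 5.13 CPM against 0.545 to 0.776) and H2-T10 (0.847, 2.91 against 1.04 to 1.22) and the lowest for H2-T24 (0.858, 0 against 2.22 to 3.76). WT replicate 3 was the lowest for H2-Aa (0.845, 0.949 CPM against 4.81 to 6.41) and H2-K2 (0.849, 0.949 against 2.63 to 3.14). hTau.P301S + NR replicate 3 was the lowest for H2-Q2 (0.920, 0.280 CPM against 0.887 to 0.972) and H2-Bl (0.897, 0.448 against 1.30 to 1.46). The last pair was H2-Q7 in hTau.P301S + NR replicate 2 (0.883, 0 CPM against 0.627 to 0.840) and H2-Q4 in hTau.P301S replicate 4 (0.914, 3.10 against 5.14 to 5.38). No difference between 2 groups' effects passed its test.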

How the results depend on the processing

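Calls of H2 genes depended on the tool and on single mice. These counts include H2-Q6 and H2-Ea-ps, which were chosen by their genotype difference, so only calls of other members carry information: H2-D1 and H2-K1 with DESeq2 with NR, and H2-D1 with no filter, robust estimation or a mouse left out with NR, and without hTau.P301S replicate 1 over all mice. Without NR the count went from 0 to 2 with DESeq2, alone or with all 4 groups in one fit (the latter chosen after seeing the data), and to 1 with edgeR on all 4 groups. With NR it went from 0 to 4 with DESeq2, 2 with DESeq2 on all 4 groups, 1 with no filter on low counts, 1 with robust estimation, and 0 to 1 when a mouse was left out (1 without WT + NR replicate 2 or 3). Over all mice it went from 1 to 2 with DESeq2, 2 with no filter, 0 with at least 10 counts in every mouse, and 1 to 3 when a mouse was left out (2 without WT + NR replicate 1, 3 without hTau.P301S replicate 1). The correlation of H2-K1 with B2m was 0.11 without hTau.P301S replicate 1. Of 937 gene-level values under alternatives, 15 changed sign, all on leaving out a mouse. Over all mice H2-DMa then ran from -0.22 to 0.24, H2-Aa from -0.74 to 0.60 and H2-T10 from -0.18 to 0.28 (log2 fold change). Without NR, H2-DMa ran from -0.03 to 0.88 and H2-DMb1 from -0.74 to 0.89, with NR H2-Aa from -1.70 to 0.34, and for NR in hTau.P301S mice H2-K1 from -0.66 to 0.02. The cause was not tested. Over all genes, DESeq2 and edgeR called 116 and 1 without NR, 56 and 9 with NR, 88 and 21 over all mice, 243 and 1 for NR in hTau.P301S mice, 3 and 0 for NR in WT mice, and 16 and 0 for the interaction. Same-numbered mice are different animals, and their deviations from group means correlated from -0.54 to 0.42. With the replicate block, 3, 4, 22, 0, 0 and 0 genes were called in the same order of comparisons, and 1 H2 gene over all mice and 0 elsewhere, as without it. Members with few counts, such as H2-Q1, H2-Q2 and H2-Bl, are limited by depth.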
